A study of Mus musculus with 6 samples.

Results

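The 37 genes described here encode the autophagy machinery and 5 of its cargo receptors. They were chosen by name, with earlier results of these data known. A gene was kept when its deposited log2 value was at least 3.32 in 3 or more of the 6 libraries. All 37 passed, out of 15059 symbols that passed the same minimum among 47593 in the files. The lowest was Atg10, at 6.80 to 6.89, so no listed gene lay near the minimum. The samples were primary neurons from the hippocampus of wild-type (WT) mice. On day 10 of culture they received apolipoprotein E (apoE) particles at 6 µg/mL for 24 h, of astrocytic origin in 3 samples and of microglial origin in the other 3. No group without particles is used here, and every direction below is that of microglial relative to astrocytic apoE. Whether replicates are separate cultures or animals is not in the labels. The p-values therefore measure only the spread between these samples, which may be technical.

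Autophagy delivers cytoplasmic material to lysosomes inside a double-membraned vesicle, the autophagosome. A kinase complex built around ULK1 starts the process, a class III phosphatidylinositol 3-kinase complex marks the membrane with lipid, and WIPI proteins, ATG2 and ATG9 extend it. Conjugation enzymes then attach the ubiquitin-like LC3 and GABARAP proteins to the membrane, where receptors such as p62 (gene Sqstm1) dock with their ubiquitinated cargo. Neurons depend on this route because they cannot dilute damaged proteins by cell division. Transcript levels do not measure autophagic flux, and p62 protein is itself degraded by autophagy.

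The autophagy receptor gene Sqstm1 rose with microglial apoE, while the other receptors and most of the core machinery differed little between the groups. Of the 37 genes, 4 rose (Sqstm1, Uvrag, Map1lc3a and Map1lc3b) and 3 fell (Ulk2, Rb1cc1 and Wipi1), with limma and a threshold of 0.05 on p-values adjusted by Benjamini-Hochberg across the 15059 tested genes. That is 18.9% of the members, against 24.8% of all tested genes. The share called higher was 10.8% against 13.0%, and the share called lower 8.11% against 11.8%. The values of the 3 microglial and the 3 astrocytic libraries did not overlap for 14 members, 37.8%, against 38.9% of all tested genes. In 9 of them the microglial values were all above the astrocytic ones (20.1% of all tested genes), and in 5 all below (18.8%). The median log2 difference of the members was 0.02, and that of all tested genes was -0.0006. These counts moved with the processing. Leaving out 1 library gave 1 to 7 members higher (1 without astrocytic replicate 1 or 2, 2 without microglial replicate 1, 7 without astrocytic replicate 3) and 1 to 5 lower (1 without astrocytic replicate 1, 5 without astrocytic replicate 3). With the libraries scaled to an equal sum of linear values (2 raised to the deposited log2 value), 9 members were higher, 24.3% against 16.7% of all tested genes. The members' share called higher was above that of all tested genes in 6 of the 14 alternatives, so it cannot be placed above or below the background. Their share called lower was above it in 1 alternative, the fit with no filter on low values (8.11% against 6.31%), and otherwise below. That share rests on 3 genes in the main fit, and its distance from the background was not tested.

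**Figure D1:**
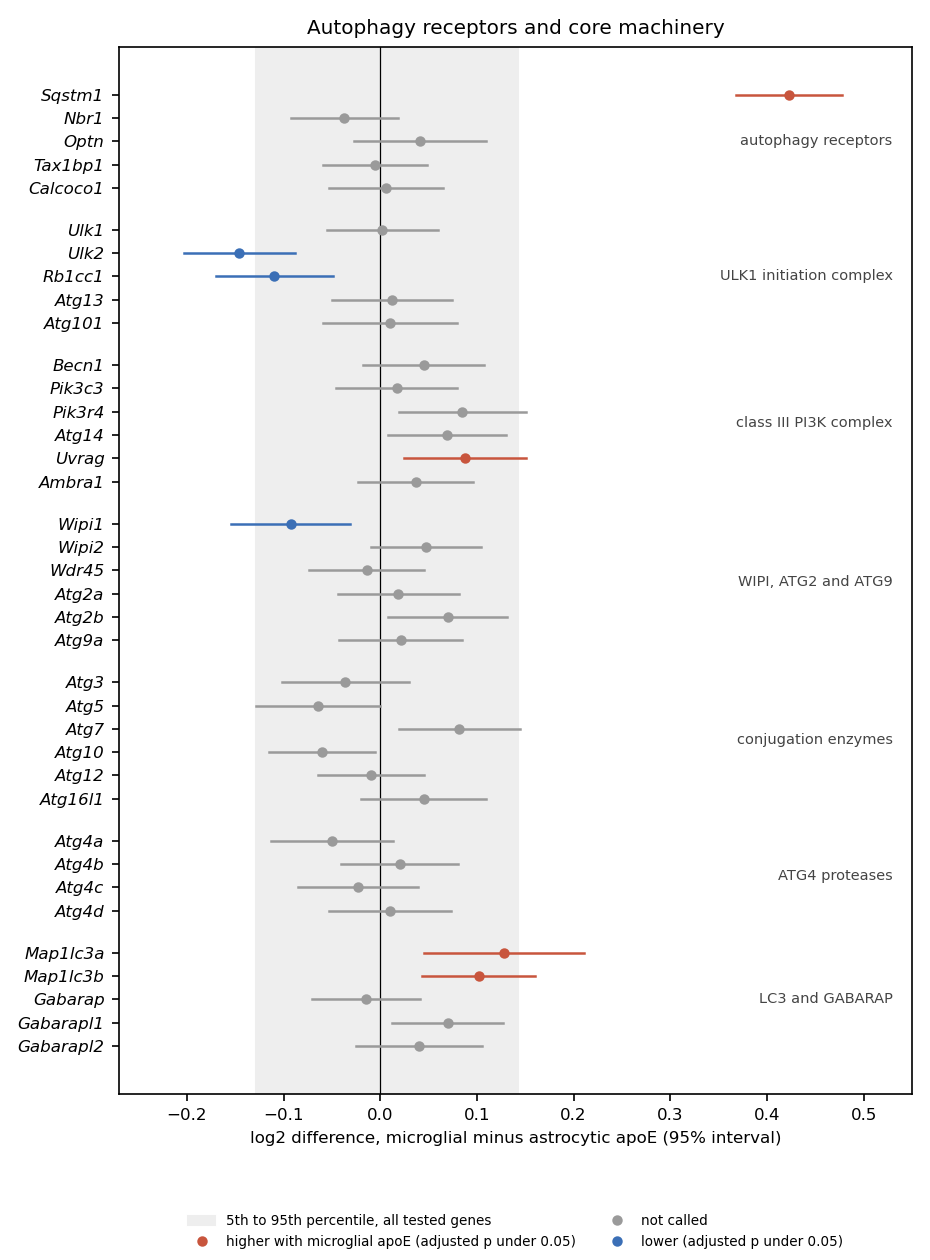
Log2 difference between microglial and astrocytic apoE (horizontal axis) for the 37 genes, grouped by role, with the fitted difference as a point and its 95% interval as a line; red and blue mark genes called higher and lower at an adjusted p under 0.05, and the grey band spans the 5th to the 95th percentile of all tested genes, -0.13 to 0.14. Sqstm1, at 0.42, stands apart to the right, and of the others only Ulk2, at -0.15, has its point outside the band. The band includes weakly expressed genes, whose differences may be shrunk by the transform of the values.

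The libraries hold transcripts of other cells as well as neurons. The linear value, summed over 12 neuron markers, was 88959 to 89852 with astrocytic and 86028 to 86719 with microglial apoE, and 5 of these 12 genes were called lower and 0 higher. That of 14 astrocyte markers was 63653 to 64193 against 54972 to 55890, with 10 of 13 tested genes lower and 1 higher. Log2 differences of these 13 genes ran from -1.08 (Gfap) to 0.09 (Slc1a3), so the markers did not change alike. The sum over 12 proliferation genes was 5330 to 5363 against 4296 to 4336, with 11 lower. Microglia markers stood at 640 to 659 and 672 to 674 (14 genes, 1 of 11 tested higher), and no listed marker was at 0. Oligodendrocyte lineage markers summed to 6504 to 6808 and 6610 to 6774 (10 genes), with 3 of 9 tested genes lower (Pdgfra -0.38, Cnp -0.20 and Sox10 -0.11) and 1 higher (Olig2 0.15), all 4 named after their values were seen. The part of these changes in the differences of Sqstm1 and the other members was not tested. In bulk RNA, fewer cells of a type and less RNA per cell cannot be told apart. Over all tested genes, 1962 were called higher (13.0%) and 1780 lower (11.8%), so that 52.4% of the called genes were higher. That share was 34.8% under median centring, 65.6% with equal-sum scaling, and 41.7% with mitochondrially encoded genes left out as well.

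Promoter sequences are shown for the receptor that rose, for the core genes with the smallest p among those that rose (Map1lc3b) and fell (Ulk2), and for Atg3, which has 2 E-boxes and did not pass. Promoters of 31 of the 37 members were matched in RefSeq (build GRCm38.p6). Each sequence runs from 250 bases before the transcription start to 30 after it, 5′ to 3′ on the gene's strand. Capitals mark the E-box CACGTG, the core of sites bound by TFEB and its relatives, and the antioxidant response element core TGACNNNGC bound by NRF2. The positions are chr11:50210791-50211070 (minus strand), chr8:121590188-121590467 (plus), chr11:61855063-61855342 (minus) and chr16:45158579-45158858 (plus), in the order of the lines.
Sqstm1: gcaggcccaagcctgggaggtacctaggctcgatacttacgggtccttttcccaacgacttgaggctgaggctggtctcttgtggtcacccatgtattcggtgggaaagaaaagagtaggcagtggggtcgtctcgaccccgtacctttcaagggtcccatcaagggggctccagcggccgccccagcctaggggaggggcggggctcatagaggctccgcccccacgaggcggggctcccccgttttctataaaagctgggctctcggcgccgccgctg
Map1lc3b: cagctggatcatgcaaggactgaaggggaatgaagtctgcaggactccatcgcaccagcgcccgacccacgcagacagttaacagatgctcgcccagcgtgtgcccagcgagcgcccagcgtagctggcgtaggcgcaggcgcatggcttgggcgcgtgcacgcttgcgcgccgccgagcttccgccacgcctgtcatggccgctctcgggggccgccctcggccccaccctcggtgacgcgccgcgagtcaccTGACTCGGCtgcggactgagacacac
Ulk2: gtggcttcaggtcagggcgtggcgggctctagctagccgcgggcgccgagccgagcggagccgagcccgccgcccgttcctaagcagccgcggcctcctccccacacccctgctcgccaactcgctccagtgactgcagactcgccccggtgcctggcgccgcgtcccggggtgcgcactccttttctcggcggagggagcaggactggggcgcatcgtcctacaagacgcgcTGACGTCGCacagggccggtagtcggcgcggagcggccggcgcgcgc
Atg3: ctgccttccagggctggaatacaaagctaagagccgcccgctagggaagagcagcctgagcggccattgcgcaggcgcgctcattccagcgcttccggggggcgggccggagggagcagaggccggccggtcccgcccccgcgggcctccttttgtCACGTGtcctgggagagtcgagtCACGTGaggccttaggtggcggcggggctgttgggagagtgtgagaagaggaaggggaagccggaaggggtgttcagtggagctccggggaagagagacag

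Both strands of the full 300-base windows were searched. The E-box occurred in promoters of 4 members (Atg14, Atg3, Atg5 and Atg7), in 11.4% of the 35 member promoters and in 7.15% of all 32851 promoters. The antioxidant core occurred in 4 members (Atg13, Map1lc3b, Tax1bp1 and Ulk2), in 11.4% of member promoters and 12.4% of all. In Ulk2 it lies 17 bases before the start and in Map1lc3b just after it, and the E-boxes of Atg3 lie 94 and 71 bases before the start. Map1lc3b rose, Ulk2 fell, and the other members with the antioxidant core, or with an E-box, did not pass. The Sqstm1 window holds neither motif, which says only that these letters are not in this window. The CLEAR element, which contains the E-box at its centre, and the ATF4 composite core TGATGNAA occurred in 0 member promoters and in 0.326% and 3.97% of all. The core of the interferon-stimulated response element occurred in 1, that of Nbr1, and in 3.44% of all.

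Among the receptors, Sqstm1 encodes p62, a scaffold that binds ubiquitin, LC3 and the NRF2 inhibitor KEAP1 (protein-coding, GRCm38 chromosome 11, 50199366 to 50210827, minus strand). Its log2 values were 13.51, 13.54 and 13.59 with astrocytic apoE and 13.97, 14.00 and 13.94 with microglial apoE. Every microglial library lay above every astrocytic library. The gene rose 1.34-fold, with a log2 difference of 0.42 ± 0.027 (SE) and a 95% interval of 0.37 to 0.48 (limma adjusted p = 3.9e-12). Only 96 of the tested genes had a higher difference, 0.637% of them. The values may come from a transform that shrinks the differences of weakly expressed genes, so this rank may partly reflect the high level of Sqstm1. Under the 14 alternative treatments of the data the difference stayed between 0.40 and 0.44. Exons of Mrnip, on the opposite strand, cover 17.3% of the exonic bases of Sqstm1, and the strand setting of the counting is not given in the sources used here. Mrnip stood at 7.25 with astrocytic and 7.24 with microglial apoE, far below Sqstm1, and did not pass (adjusted p = 0.81).

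The other 4 receptors did not pass, with differences of -0.04 to 0.04 and no unadjusted p under 0.05 (0 of 4). Nbr1, which like p62 binds ubiquitin and LC3, stood at 11.68, 11.67 and 11.67 with astrocytic apoE and at 11.66, 11.61 and 11.65 with microglial apoE. Its microglial values all lay below the astrocytic ones, but by a small margin (difference -0.04, 95% interval -0.09 to 0.02, adjusted p = 0.33). Optn, the receptor optineurin, which acts in the clearance of mitochondria, had values of 8.70, 8.58 and 8.66 against 8.69, 8.67 and 8.70, and the groups overlapped (interval -0.03 to 0.11). Tax1bp1, a ubiquitin-binding receptor, was the steadiest, at 11.71 in each astrocytic library and at 11.69, 11.70 and 11.72 in the microglial ones (interval -0.06 to 0.05). Calcoco1, a receptor of the endoplasmic reticulum and Golgi, had values of 9.75, 9.76 and 9.78 against 9.75, 9.78 and 9.78 (interval -0.05 to 0.06). The intervals of these 4 genes lay wholly below that of Sqstm1. They do not show that the genes were equal between the groups.

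The medians of receptors and core machinery were both close to 0. The median difference was 0.006 for the 5 receptors and 0.02 for the 32 core genes, and both were below 0 under median centring of the libraries (-0.013 and -0.00055). For the receptors other than Sqstm1 it was 0.0001. The receptor count was 1 higher and 0 lower of 5, and the core count was 3 higher and 3 lower of 32. Of all tested genes, 13.0% were called higher and 11.8% lower. There was no test of one list against the other. Sqstm1 lay above the other receptors and the machinery alike: the highest upper bound among the other 36 genes was 0.21, that of Map1lc3a, below the lower bound of Sqstm1.

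**Figure D2:**
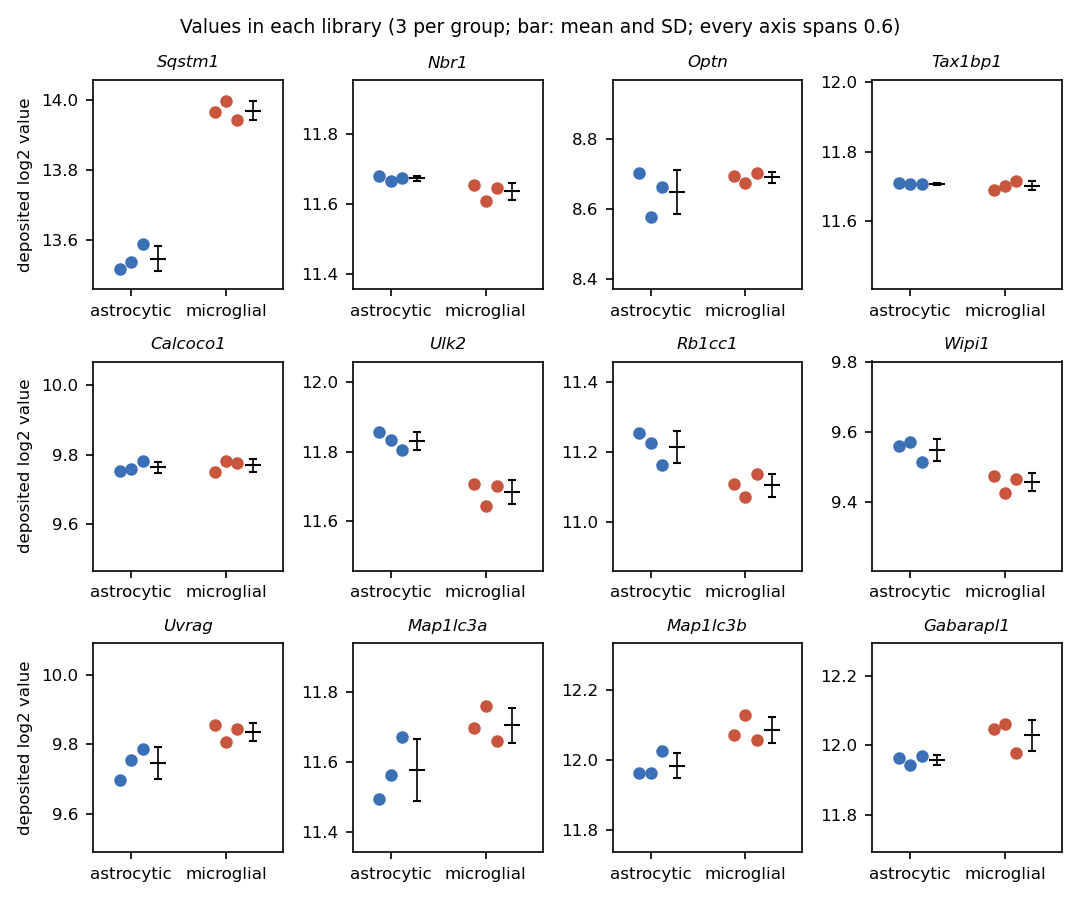
Deposited log2 values of 12 genes in each of the 3 astrocytic (blue) and 3 microglial (red) apoE libraries, with the group mean and SD as a black bar; every vertical axis spans 0.6. The Sqstm1 groups are separated by far more than their spread, the groups of the other 4 receptors lie within 0.04 of each other on average, and the Map1lc3a groups overlap because its astrocytic values range from 11.50 to 11.67.

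Levels can be compared between genes only per length of transcript, here as the linear value per kilobase of the longest basic coding transcript in GENCODE M21. On that scale Sqstm1 was the most abundant receptor, at 4475 ± 114 in the astrocytic and 5999 ± 114 in the microglial libraries (SD, n = 3). Tax1bp1 followed at 1018 ± 1.67 and 1014 ± 9.54, then Nbr1 at 682 ± 3.46 and 665 ± 11.2. Calcoco1 (293 and 294) and Optn (154 and 158) were the lowest, and no neighbours in this order came within their spread of each other. That spread does not cover the choice of length. All exons of Tax1bp1 together span 9991 bases and those of Nbr1 6871, against 3285 and 4789 in the transcripts used. The order of Tax1bp1 and Nbr1 therefore depends on that choice. At the lengths used, Sqstm1 made up 67.0% to 68.1% of the summed receptor level in the astrocytic libraries and 73.3% to 74.3% in the microglial ones. The share of every other receptor was correspondingly smaller, although the level of none of them passed the test.

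The 3 members that fell belong to initiation and to membrane extension. The ULK1 complex had 2 of 5 genes lower and 0 higher, where 11.8% of all tested genes were called lower and 13.0% higher. Ulk2, one of the kinases that start autophagy, had values of 11.86, 11.83 and 11.80 with astrocytic and 11.71, 11.65 and 11.70 with microglial apoE. The groups did not overlap, and Ulk2 was 1.11-fold lower (log2 difference -0.15 ± 0.028 SE, 95% interval -0.20 to -0.09, limma adjusted p = 3.0e-04). Its call held in all 14 alternatives. Rb1cc1 encodes FIP200, the scaffold of that complex, and had values of 11.25, 11.23 and 11.16 against 11.11, 11.07 and 11.14. Its difference was -0.11 ± 0.029 (SE, adjusted p = 0.0075). Without astrocytic replicate 1 it no longer passed (adjusted p = 0.063). The partner kinase Ulk1 had overlapping values, 10.79, 10.82 and 10.85 against 10.84, 10.82 and 10.81 (adjusted p = 0.96), and Atg13 and Atg101, the remaining subunits, differed by 0.01 each.

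All 6 genes of the phosphatidylinositol 3-kinase complex had differences above 0, from 0.02 to 0.09. The smallest, that of Pik3c3, falls below 0 under median centring. Of the 6 genes 1 passed, where 13.0% of all tested genes were called higher. Uvrag, a subunit tied to autophagosome maturation and endosomes, had values of 9.70, 9.76 and 9.79 against 9.85, 9.81 and 9.84. It rose by 0.09 ± 0.031 (SE, adjusted p = 0.037). The call was lost without astrocytic replicate 1 (adjusted p = 0.21), astrocytic replicate 2 (0.087), microglial replicate 1 (0.14) or microglial replicate 3 (0.11), and also with median centring (0.089), with no filter on low values (0.053) and with mitochondrially encoded genes left out (0.060). Exons of another gene on the opposite strand cover 17.6% of its exonic bases. Pik3r4, the VPS15 regulatory subunit, and Atg14, which directs the complex to autophagosome formation, had non-overlapping groups without passing (0.09, adjusted p = 0.053, and 0.07, adjusted p = 0.090). Becn1, which encodes beclin 1, the core subunit, differed by 0.04 (43.9% of its exonic bases lie under exons of another gene), and the lipid kinase Pik3c3 and the regulator Ambra1 by 0.02 and 0.04.

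In the group that extends the membrane, 1 of 6 genes fell, where 11.8% of all tested genes were called lower. Wipi1, which reads the lipid mark, had values of 9.56, 9.57 and 9.51 with astrocytic and 9.47, 9.43 and 9.47 with microglial apoE. Its groups did not overlap (difference -0.09 ± 0.030 SE, adjusted p = 0.025). The call was lost without astrocytic replicate 1 (adjusted p = 0.085), astrocytic replicate 2 (0.12), microglial replicate 2 (0.088) or microglial replicate 3 (0.054), and after equal-sum scaling (0.056). Its relative Wipi2, which recruits the conjugation machinery, had a difference of the opposite sign (0.05, adjusted p = 0.23), with the 3 microglial values above the astrocytic ones. Wdr45 (-0.01), the lipid transfer genes Atg2a (0.02) and Atg2b (0.07, adjusted p = 0.089) and the membrane scramblase Atg9a (0.02) did not pass. Transcripts of Wdr45 and Atg9a share 16.9% and 30.2% of their 50-base words with other genes, so both are uncertain.

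None of the 6 conjugation enzymes and none of the 4 ATG4 proteases passed. Of all 37 members, 14 had an unadjusted p under 0.05. The share of all tested genes at that cut is not given here, so this count describes nothing particular to the members. Even the adjusted threshold was passed by 24.8% of all tested genes. The closest conjugation enzyme was Atg7, which activates LC3 and ATG12, with values of 9.03, 9.05 and 9.10 against 9.13, 9.15 and 9.14. Its groups did not overlap, and its difference of 0.08 ± 0.030 (SE) lay at the threshold (adjusted p = 0.05004). It passed with the minimum raised to a linear value of 50 (adjusted p = 0.045), after equal-sum scaling (0.026), with limma's plain variance model (0.032) and without astrocytic replicate 3 (0.014). The E2-like enzymes Atg3 (-0.04) and Atg10 (-0.06) and the conjugation partners Atg5 (-0.06), Atg12 (-0.01) and Atg16l1 (0.04) did not pass. The ATG4 proteases, which trim LC3 and later release it from the membrane, ranged from -0.05 (Atg4a, adjusted p = 0.25) to 0.02 (Atg4b). Of the 50-base words of Atg4a, 51.2% also occur in the pseudogene Atg4a-ps, so its value is uncertain.

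Both LC3 genes rose and the 3 GABARAP genes did not pass, where 13.0% of all tested genes were called higher. A difference between these subfamilies was not tested. Map1lc3b, the standard marker of autophagosomes as LC3B protein (chromosome 8, 121590361 to 121598760), had values of 11.96, 11.96 and 12.03 against 12.07, 12.13 and 12.06. It rose 1.07-fold (0.10 ± 0.028 SE, adjusted p = 0.0095) without overlap, and did not pass once astrocytic replicate 1 (adjusted p = 0.056) or 2 (0.075) was left out. Some of its sequence, 5.77% of its 50-base words, is shared with other genes, foremost the pseudogene Gm6055, which stood far lower, at 5.65 and 5.59. Map1lc3a, which encodes LC3A, had values of 11.50, 11.56 and 11.67 against 11.70, 11.76 and 11.66. Its groups overlapped, since astrocytic replicate 3 lay above microglial replicate 3. The rise of 0.13 ± 0.039 (SE, adjusted p = 0.024) was lost without astrocytic replicate 1 (adjusted p = 0.11), astrocytic replicate 2 (0.085), microglial replicate 1 (0.063) or microglial replicate 2 (0.14), and with limma's plain variance model (0.055).

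Gabarapl1, a GABARAP relative, had values of 11.96, 11.94 and 11.97 against 12.05, 12.06 and 11.98, without overlap (0.07, adjusted p = 0.068). It passed after equal-sum scaling (adjusted p = 0.033), without astrocytic replicate 3 (0.043) and without microglial replicate 3 (0.037). Exons of a gene on the opposite strand cover 28.3% of its exonic bases. Gabarapl2 (0.04, 95% interval -0.02 to 0.11) and Gabarap itself (-0.01, interval -0.07 to 0.04) overlapped between the groups, and 12.2% of the 50-base words of Gabarapl2 also occur in other genes, so its value is uncertain. Gabarap values were 12.73, 12.72 and 12.72 against 12.67, 12.76 and 12.70. Per kilobase, Gabarap was the most abundant of the family, at 5009 ± 26.8 and 4958 ± 150 (SD, n = 3). Map1lc3a followed at 2751 ± 173 and 3005 ± 106, Gabarapl1 at 2187 ± 20.7 and 2296 ± 70.5, Map1lc3b at 1538 ± 39.0 and 1651 ± 43.5, and Gabarapl2 at 862 ± 31.0 and 887 ± 29.4. The order was the same in both groups, for which the same lengths were used. All exons of Map1lc3b together span 7517 bases and those of Gabarapl2 2325, against 2633 and 1677 in the transcripts used. The order of this pair therefore depends on the length chosen. At the lengths used, Gabarap made up 39.8% to 41.2% of the family's summed level with astrocytic and 38.1% to 39.4% with microglial apoE.

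**Figure D3:**
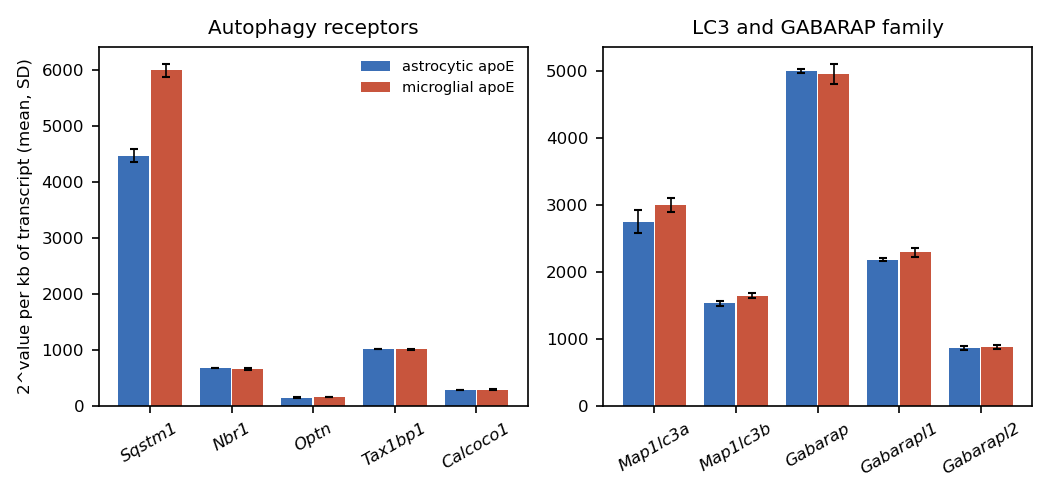
Level per kilobase of transcript (linear value per kb, bars from 0, mean and SD over 3 libraries) of the 5 receptors and the 5 LC3 and GABARAP genes with astrocytic (blue) and microglial (red) apoE. Sqstm1 is the tallest receptor bar in both groups and the pair with the widest gap, and Gabarap is the tallest of the LC3 and GABARAP bars.

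The other genes of the pathway were taken from 6 lists with 76 genes, of which 73 were tested, 12 rose and 8 fell (median difference 0.03). These are 16.4% and 11% of the tested genes of the lists, against 13.0% and 11.8% of all tested genes. The lists were chosen with earlier results of these data known, so their counts and medians are description only. Regulators of transcription had 5 of 10 tested genes higher and 0 lower, with a median of 0.10. Nfe2l2, which encodes NRF2, had values of 10.64, 10.65 and 10.62 against 11.01, 11.01 and 10.97, a rise of 0.36 ± 0.027 (SE, adjusted p = 1.5e-10). Atf4 (0.24), Ddit3 (0.19) and Foxo3 (0.18), transcription factors of the stress response and of growth factor withdrawal, also rose, as did Tfe3 (0.15, named after its value was seen). Tfeb, the relative of Tfe3 best known for lysosomal genes, did not pass (-0.02), nor did Keap1 (0.05), whose product restrains NRF2. Like Tbk1 and Mtor below, these 2 are named for their roles, after their values were seen.

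For the 2 lists in this paragraph the background is again 13.0% of all tested genes called higher and 11.8% lower. Neither list was tested against it. Among kinases and ligases that act on receptors, 2 of 7 rose and 0 fell. Trim21, an interferon-induced ubiquitin ligase that modifies p62, had values of 7.08, 7.12 and 7.12 against 8.04, 7.98 and 8.05, a 1.89-fold rise (0.92 ± 0.030 SE, adjusted p = 3.1e-18). Csnk2b, the regulatory subunit of the p62 kinase CK2, rose by 0.13 (adjusted p = 0.0038), and Tbk1, which phosphorylates optineurin and p62, did not pass (0.06). In the list of nutrient-sensing genes 4 of 17 rose and 0 fell: the Rag GTPases Rraga (0.17) and Rragc (0.14), the AMPK subunit Prkab1 (0.12) and Tsc2 (0.09, adjusted p = 0.048). Mtor (-0.01), the kinase itself, did not pass.

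Receptors of selective autophagy outside the 5 members had 4 of 16 tested genes lower and 0 higher. Of all tested genes, 11.8% were called lower and 13.0% higher, and no list below was tested against these shares. The mitochondrial receptors Bnip3 and Bnip3l fell by 0.15 and 0.12 on the log2 scale, and the endoplasmic reticulum receptor Retreg1 (Fam134b in the files) by 0.11. Pink1, the kinase that flags damaged mitochondria, fell by 0.07 (adjusted p = 0.043), a call lost in each of the 6 fits without 1 library, with no filter on low values and after equal-sum scaling. In the fusion list 1 of 13 rose and 3 fell: the SNARE genes Snap29 and Stx17 fell by 0.13 and 0.10 and the tethering gene Vps41 by 0.09, whereas its partner Vps18 rose by 0.08 (adjusted p = 0.048). Of 10 further genes of autophagosome formation 1 fell, Wdr45b (-0.08), and 0 rose. Without astrocytic replicate 1 the calls of Snap29, Stx17, Vps41, Vps18, Wdr45b and Tsc2 were lost (adjusted p from 0.096 for Stx17 to 0.27 for Tsc2). Leaving out another library also ended some: astrocytic replicate 2 those of Stx17, Vps41, Vps18, Wdr45b and Tsc2, microglial replicate 1 those of Snap29, Vps41, Vps18, Wdr45b and Tsc2, microglial replicate 2 those of Snap29, Stx17, Vps18 and Tsc2, and microglial replicate 3 those of Vps41, Vps18, Wdr45b, Tsc2 and Prkab1 (adjusted p for Prkab1 = 0.058). Median centring and leaving out mitochondrially encoded genes each ended the calls of Vps18 and Tsc2, equal-sum scaling those of Vps41 and Wdr45b, no filter those of Vps18 and Wdr45b, and limma's plain variance model those of Snap29, Vps41 and Tsc2. The calls of Bnip3, Bnip3l, Retreg1, Rraga, Rragc, Nfe2l2, Atf4, Ddit3, Foxo3, Trim21 and Csnk2b held in all 14 alternatives.

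**Figure D4:**
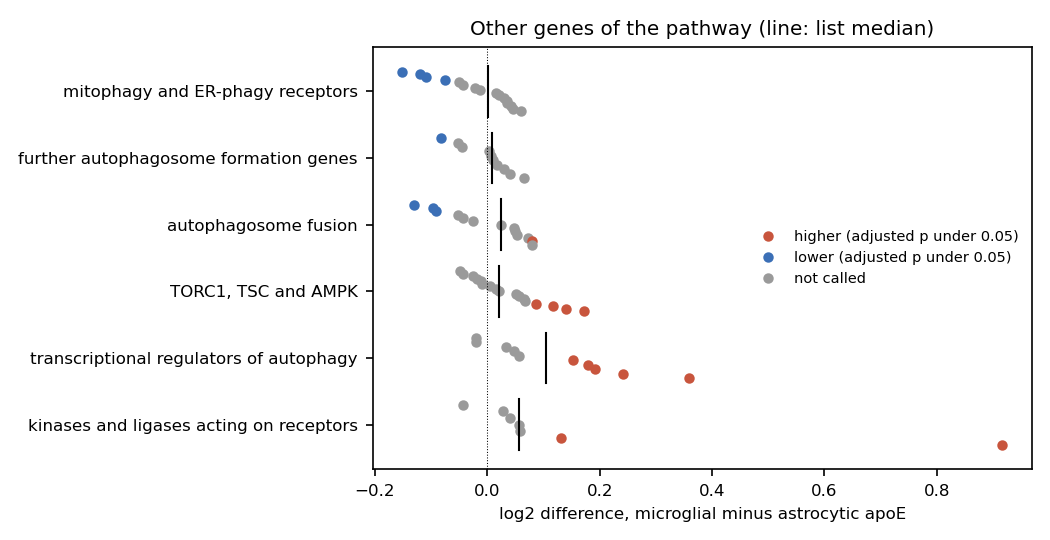
Log2 difference between microglial and astrocytic apoE (horizontal axis) for the 73 tested genes of 6 other lists of the pathway, each point a gene, red and blue for genes called higher and lower, with the list median as a black line. The transcription regulators lie furthest right as a list, with a median of 0.10, and the single point near 0.92 is Trim21. The lists were chosen with earlier results of these data known.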

How the data were processed

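RNA of 6 samples was sequenced at BGI on a DNBSEQ platform, per the labels' protocols. The authors deposited 1 log2 value per gene symbol and sample, without a header. Build GRCm38 and the tools HISAT2, featureCounts, DESeq2 and FastQC appear in the submitters' processing notes, with no role or version, and the strand setting is not given there. The same 21031 symbols stand at exactly 0 in all files and 0 symbols in only some, a pattern that a regularized logarithm gives, although no source used here names the transform. A regularized logarithm shrinks the fold change and the spread of weakly expressed genes. The depth is unknown: linear values (2 raised to the log2 value) summed to between 18060473 and 18337624 in a library, which is no read count.

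The log2 values entered limma (version 3.58.1, R 4.3.3, trend and robust options) unchanged, over all 15059 symbols with a value of at least 3.32 in 3 or more files, with no replicate block. The procedure was also run on simulated data, drawn as independent normal values with a spread that followed the level. Shrunken values or technical replicates would differ from that setting, so the run is no check of the calls made here. SE is limma's moderated standard error, intervals are at 95%, and folds are 2 to the power of the difference. Members and lists were chosen with earlier results of these data known. Named genes were the 5 receptors, the 5 LC3 and GABARAP genes, every called core gene, the smallest p of a role without a call, and up to 4 called genes of each other list by smallest p. Other members are named by their values alone. The files' older symbols Fam134b and 3010026O09Rik were matched to Retreg1 and Mrnip through RefSeq. Coordinates, exons and transcripts are from GENCODE M21 (GRCm38, 1-based). The alternatives were 2 other filters, 3 scalings, a pseudocount of 1, a plain variance model, each of 6 libraries left out and a replicate block. Python 3.11.15 (pandas 2.3.3, numpy 2.4.6) made the tables and matplotlib 3.10.9 the figures.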

Additional observations from a re-analysis of the deposited data

How the results depend on the processing

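Of the 7 called members, Sqstm1 and Ulk2 kept their call in all 14 alternatives, and the other 5 lost it in at least 1. With libraries scaled to an equal linear sum, 9 members were called higher and the core median was 0.031. Median centring gave medians of -0.013 for the receptors and -0.00055 for the core, and leaving out mitochondrially encoded genes gave a core median of 0.0076. These scalings shift all genes alike, by -0.018 to 0.014 in the median. Leaving out 1 library gave 1 to 7 members called higher and 1 to 5 called lower, with 1 higher without astrocytic replicate 1 or 2, 1 lower without astrocytic replicate 1, and both highest counts without astrocytic replicate 3. Where a group was left with 2 libraries its spread was taken from the whole fit. None of the 35 named genes that were refitted reversed after a call in these alternatives. With the replicate number as a block, 3 members were called higher, 3 lower and 3388 genes in all, and the calls of Uvrag, Pink1, Wdr45b, Vps18 and Tsc2 were lost (adjusted p from 0.055 to 0.080) and the other refitted calls kept. No pairing of the libraries by number was seen: deviations of same-numbered libraries correlated across genes at 0.039, -0.12 and -0.19. Astrocytic replicate 1 correlated best with microglial replicate 3 (0.11), and the highest value was that of astrocytic replicate 3 with microglial replicate 2 (0.18). Deviations from the mean of 3 libraries depend on each other, so these values cannot show whether same-numbered libraries shared a culture. SDs of 27 of the 37 members were below those of counting if the linear value were a count (median 0.032 against 0.044), so their SEs may be too small. The difference of each of the 7 called members exceeded the 95% bound of counting error on that scale. The depth is unknown, so no limit from counts can be given.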
